A study of Danio rerio with 3 samples.

Results

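The comparison described here set microRNA arms of zebrafish larvae whose parents had lived in 6.25 mg/L of an antibiotic mixture against those of larvae whose parents had lived in 0 mg/L. Both groups were wild-type AB larvae taken whole at 7 days post fertilisation (dpf), with 1 small RNA library each. The parents had been kept at their dose for 90 days, starting as embryos at 6 hours post fertilisation. The mixture held 6 β-diketone antibiotics in equal parts by weight: 3 tetracyclines (oxytetracycline, chlortetracycline and doxycycline) and 3 fluoroquinolones (enrofloxacin, ciprofloxacin and ofloxacin, which the labels spell ofluoxacin). The remaining group of the series, larvae of parents at 12.5 mg/L, also had 1 library, and it entered only the abundance limit and a few values given for orientation. The labels do not say whether the larvae themselves were exposed, nor how many larvae were pooled. With 1 library per group there is no replicate check and no test. Every ratio compares 2 libraries, and a fixed size of at least 1.5-fold, with 2-fold as a stricter mark, stands in for a test.

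An arm is the mature strand cut from the 5′ side (5p) or the 3′ side (3p) of a microRNA hairpin. Drosha and Dicer release both arms as a duplex, an Argonaute protein usually keeps the guide strand, and bases 2 to 8 of that strand, the seed, pair with target mRNAs. IsomiRs are reads of the same arm with shifted ends. Most differ at the 3′ end, where Drosha (3p arms) or Dicer (5p arms) can cut imprecisely and where nucleotides can be trimmed or added. All zebrafish-named sequences of an arm, 497 in total, were summed into 296 arms. Of these arms, 190 reached a mean of 100 normalised reads over the 3 libraries and were compared, and 106 did not. The 190 arms were built from 373 sequences, with 71 arms resting on 1 sequence and the most varied arm on 11. The last arm to pass was miR-141-5p with a mean of 103.7, and the first to miss was mir-7a-3-p3 with 97.3.

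The arms that stood farthest apart between the libraries are printed here by their most abundant read, 5′ to 3′, with the seed in capitals and T for U as deposited. The first group holds arms at least 1.5-fold lower in larvae of parents at 6.25 mg/L, and miR-130a, which shares the seed of miR-301a but was not lower.
miR-19a-3p: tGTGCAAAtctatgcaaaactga
miR-19b-3p: tGTGCAAAtccatgcaaaactg
miR-19d-3p: tGAGCAAAcccatgcaaaact
miR-731: aATGACACgttttctcccggatc
miR-462: tAACGGAAcccataatgcagctg
miR-145-5p: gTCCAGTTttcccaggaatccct
miR-155: tTAATGCTaatcgtgataggggt
miR-301a: cAGTGCAAtagtattgtcaaagcgt
miR-130a: cAGTGCAAtattaaaagggcat
The second group holds arms at least 1.5-fold higher in larvae of parents at 6.25 mg/L.
miR-144-3p: cTACAGTAtagatgatgtact
miR-2191: tCACACCTacaatccctggca
miR-126a-5p: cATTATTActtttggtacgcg
mir-194b-p3: cCCATGGAgaagctgttacctg
mir-31-p3: tGCTATGCctccatattgccatt
miR-18c: tAAGGTGCatcttgtgtagtt
miR-10b-3p: aCAGATTCgattctaggggagt
miR-723-3p: aGACATCAattaaatctgtgc
Several of these reads start or end away from the annotated form, so the seed shown is that of the read. The sole read of miR-19d-3p carries a substitution inside its seed, and it therefore departs from the seed GTGCAAA of the other miR-19 arms.

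The libraries held 5099264 counts at 6.25 mg/L and 4534557 counts at 0 mg/L, and the 190 arms took 96.5% of them at 6.25 mg/L against 97.2% at 0 mg/L. The authors' normalisation multiplied the counts by 1.02 at 6.25 mg/L and by 1.18 at 0 mg/L. Arms typical of many tissues passed the limit in these whole larvae, including muscle miR-133a-3p, brain miR-9-5p, liver miR-122, gut miR-192 and skin miR-205-5p, while neither arm of gonad miR-202 did. In RNA from whole animals, fewer cells of a type and less RNA per cell cannot be told apart.

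Most arms had similar levels in the 2 libraries. The log2 ratio of 6.25 over 0 mg/L had a median of 0.12, with quartiles of -0.10 and 0.30 and 5% and 95% points of -0.41 and 0.57. Of the 190 arms, 174 (91.6%) differed by less than 1.5-fold. The ratio was above 0 for 123 arms and below 0 for 67. At least 1.5-fold higher were 8 arms (4.21%) and at least 1.5-fold lower were another 8 (4.21%), 8.42% together. At the 2-fold mark 1 arm was higher (0.526%) and 4 were lower (2.11%), 2.63% together. The exact 95% counting interval of the ratio excluded 1 for all 16 arms past 1.5-fold, but it also did so for 143 of the 190 arms, since such intervals cover counting error only and leave out the spread between larvae and preparations.

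The number of higher arms depended on the scaling. When the libraries were scaled by the median of ratios, the arms moved by -0.08 on the log2 scale. Of 193 arms compared then, only 2 were at least 1.5-fold higher (miR-144-3p and miR-2191) while 8 were lower. With library totals made equal, 13 of 195 arms were higher and 7 lower.

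**Figure D1:**
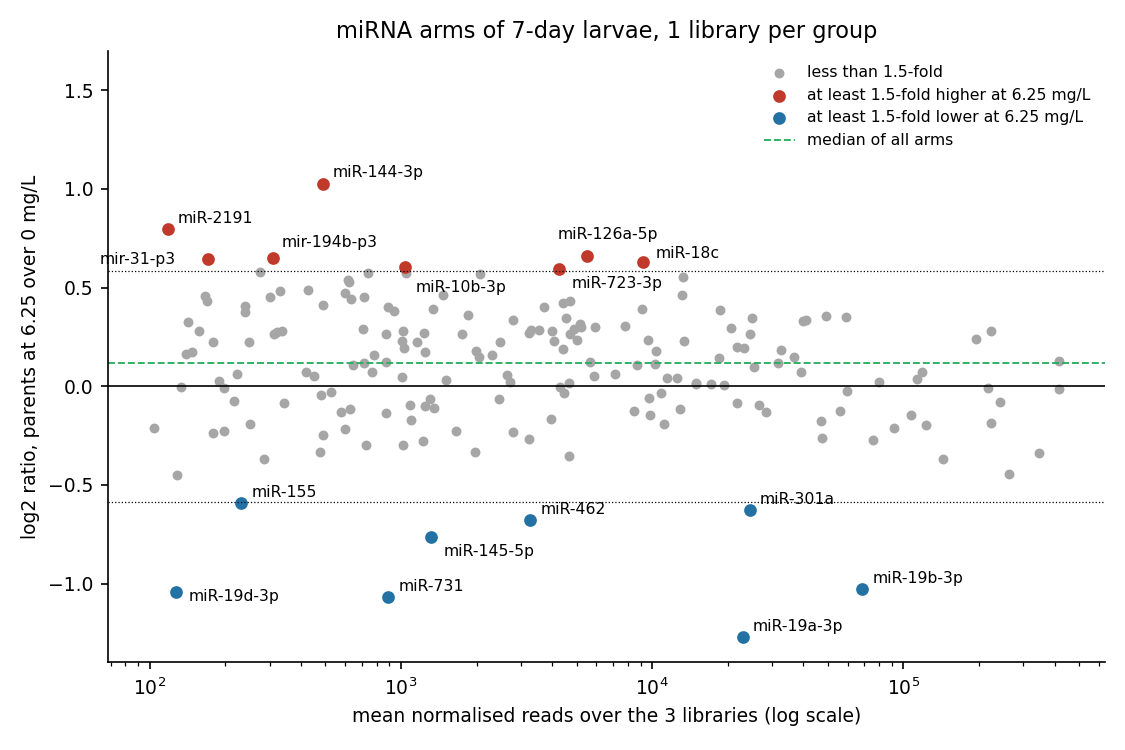
Each point is a microRNA arm (190 arms), placed by its mean normalised reads over the 3 libraries (log scale) and its log2 ratio of 6.25 over 0 mg/L, with 1 library per group. Dotted lines mark 1.5-fold and the dashed line the median of 0.12. Of the 4 points below -1, miR-19a-3p and miR-19b-3p are abundant arms, and 4 of the 8 arms above the upper line have means under 1000.

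Of the 4 arms at least 2-fold lower, 3 belonged to the miR-19 family, products of the miR-17-92 cluster and its paralogs, which are known in mammals for promoting cell survival and growth. miR-19a-3p had 14909.5 normalised reads in larvae of parents at 6.25 mg/L, against 36019 in those of parents at 0 mg/L, a log2 ratio of -1.27 with a counting interval of the ratio of 0.406 to 0.422. miR-19b-3p had 50295 at 6.25 mg/L and 102518 at 0 mg/L, a log2 ratio of -1.03 (interval 0.485 to 0.496). These are abundant arms, and counting error is a small part of their 2-fold distance. The scarcest member, miR-19d-3p, had 34.7 reads at 6.25 mg/L and 72.5 at 0 mg/L, a log2 ratio of -1.04 with a wide interval of 0.303 to 0.733. It passed the abundance limit only through the 12.5 mg/L library, where it had 273.8 reads. The 3 arms summed gave 65239 reads at 6.25 mg/L and 138610 at 0 mg/L, a log2 ratio of -1.09.

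The strand opposite to miR-19a-3p on its hairpin stood near the bulk. miR-19a-5p had 550.7 reads at 6.25 mg/L and 602.8 at 0 mg/L, a log2 ratio of -0.13 whose interval (0.808 to 1.03) held 1. The 2 strands of that hairpin thus lay on different levels of the ratio. Of the cluster and its paralogs, 17 of 24 arms were compared. Their median log2 ratio was -0.13, beside 0.12 for all arms, with 7 arms above 0 and 10 below. Past 1.5-fold were 1 higher arm, miR-18c, and the 3 lower arms of miR-19, beside 4.21% of all arms in each direction. Among the guide arms of the cluster, miR-20a-5p and miR-92a-3p had values within 1.5-fold: miR-20a-5p had 25800 reads at 6.25 mg/L and 28261 at 0 mg/L (-0.13), while miR-92a-3p had 46804.5 at 6.25 mg/L against 56068 at 0 mg/L (-0.26). miR-18c, a paralog of the cluster member miR-18a, had 11381 reads at 6.25 mg/L against 7350 at 0 mg/L, a log2 ratio of 0.63 (interval 1.501 to 1.597).

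miR-462 and miR-731 were both lower. These fish microRNAs are encoded together, and in teleosts both are known to be raised by low oxygen and by interferon. miR-731 had 598.7 reads at 6.25 mg/L and 1256 at 0 mg/L, a log2 ratio of -1.07 (interval 0.430 to 0.528). miR-462 had 2682 reads at 6.25 mg/L and 4292 at 0 mg/L, a log2 ratio of -0.68 (interval 0.594 to 0.657). The pair shares no seed, and both of its compared arms were past 1.5-fold, in a comparison where 4.21% of all arms were that low.

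Further lower arms are known from other tissues. miR-145-5p, which in zebrafish serves the maturation of gut smooth muscle, had 924.6 reads at 6.25 mg/L and 1571 at 0 mg/L, a log2 ratio of -0.76 (interval 0.540 to 0.641). Its cluster partner miR-143 had 21077 reads at 6.25 mg/L against 21012 at 0 mg/L, a ratio whose sign changed with the scaling. miR-155, made in activated immune cells, had 214.5 reads at 6.25 mg/L and 324.4 at 0 mg/L, a log2 ratio of -0.59 that dropped under 1.5-fold with equal library totals. The other immune arms were mixed, with miR-142a-5p at 0.57 and miR-146a at 0.33 but miR-142a-3p at -0.05 and miR-146b at -0.11, and the median over the 5 compared immune arms was -0.05.

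miR-301a and miR-130a, which carry the same seed AGTGCAA and so are predicted to share many targets, lay apart. miR-301a had 18880 reads at 6.25 mg/L, against 29160.4 at 0 mg/L, a log2 ratio of -0.63 (interval 0.635 to 0.660). miR-130a had 27014 reads at 6.25 mg/L and 22473 at 0 mg/L, a log2 ratio of 0.27. All reads of miR-130a carry a substitution against the annotated form and may belong to a family member. The distance of 0.89 on the log2 scale was the widest among the 30 seeds shared by at least 2 compared arms. The read of miR-301a is 25 nt long and that of miR-130a 22 nt, which bears on the length pattern described further on.

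The highest arm was miR-144-3p. miR-144 is made with miR-451 in red blood cells, where zebrafish work links it to globin gene control. miR-144-3p had 619.6 reads in larvae of parents at 6.25 mg/L, against 303.6 in those of parents at 0 mg/L, a log2 ratio of 1.03 (interval 1.76 to 2.37). The opposite arm, miR-144-5p, had 3104 reads at 6.25 mg/L against 2982 at 0 mg/L (0.06), so the distance lay on the 3p strand of the hairpin, the scarcer of the 2. In the 12.5 mg/L library miR-144-3p had 540.2 reads.

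The vessel microRNA miR-126a, which sits in an intron of the endothelial gene egfl7, also differed mainly on a single strand. miR-126a-5p had 7337 reads at 6.25 mg/L and 4641 at 0 mg/L, a log2 ratio of 0.66 (interval 1.52 to 1.64). miR-126a-3p had 8987 reads at 6.25 mg/L and 8338 at 0 mg/L, a log2 ratio of 0.11. miR-10b-3p, the passenger strand of a Hox cluster hairpin, had 1348 reads at 6.25 mg/L and 887.7 at 0 mg/L, a log2 ratio of 0.60. In both hairpins the opposite strand was not past 1.5-fold higher, and miR-10b-5p was among the lowest arms.

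The remaining higher arms were the gut and kidney strand mir-194b-p3 (395.4 reads at 6.25 mg/L and 251.3 at 0 mg/L, 0.65), mir-31-p3 (201.3 at 6.25 mg/L against 128.6 at 0 mg/L, 0.64), miR-723-3p (5210.3 at 6.25 mg/L against 3455 at 0 mg/L, 0.59) and the scarce miR-2191 (127.7 at 6.25 mg/L against 73.1 at 0 mg/L, 0.80 with an interval of 1.28 to 2.41). The last 2 are fish microRNAs. Just short of 1.5-fold stood miR-20b-3p, with 319.8 reads at 6.25 mg/L and 213.5 at 0 mg/L (0.58). So did miR-430b-3p, with 1353 at 6.25 mg/L against 909.5 at 0 mg/L (0.57), although its most abundant read alone lay at 0.17. On the lower side, miR-200c-5p, whose sole read holds an undetermined base, with 107.3 reads at 6.25 mg/L against 147.1 at 0 mg/L, like miR-10b-5p with 246543 at 6.25 mg/L against 336155 at 0 mg/L, both at -0.45, completed the 10 lowest arms.

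**Figure D2:**
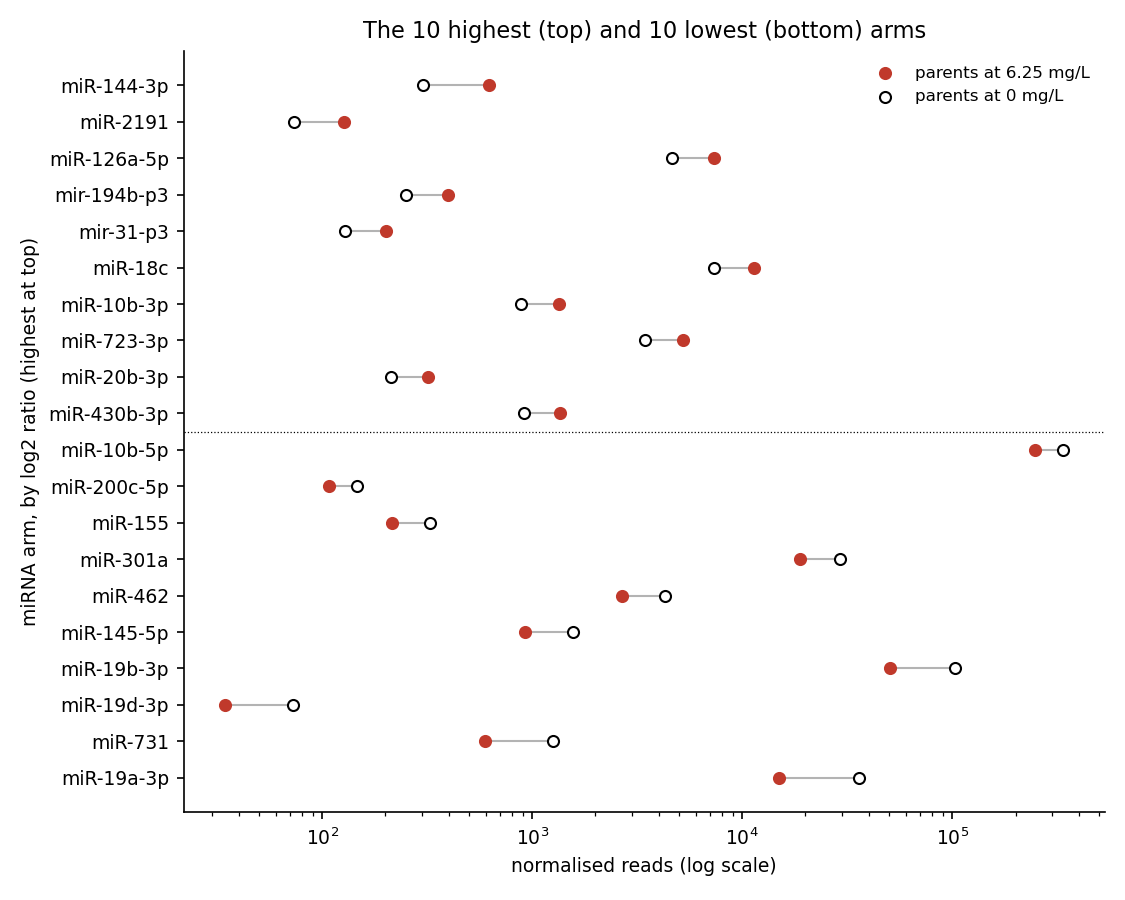
Normalised reads (log scale) of the 10 arms with the highest and the 10 with the lowest log2 ratio, with filled points for larvae of parents at 6.25 mg/L and open points for larvae of parents at 0 mg/L, 1 library each. The lines span about 2-fold at most for the higher arms (miR-144-3p) and 2.42-fold for the lowest arm, miR-19a-3p.

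The 10 most abundant arms took 55.3% of all counts of the library at 6.25 mg/L (95% exact interval 55.2 to 55.3) and 56.5% at 0 mg/L (56.5 to 56.6). None was past 1.5-fold. miR-26a-5p had 471390 reads at 6.25 mg/L and 431815 at 0 mg/L (0.13), while miR-181a-5p had 467572 at 6.25 mg/L against 471634 at 0 mg/L (-0.01). miR-9-5p (238376 at 6.25 mg/L against 239803 at 0 mg/L, -0.01) and miR-10c-5p (262576 at 6.25 mg/L against 278028 at 0 mg/L, -0.08) were also level, and miR-181b-5p had 239902 at 6.25 mg/L against 272960 at 0 mg/L (-0.19). miR-21 (236018 at 6.25 mg/L against 199818 at 0 mg/L, 0.24) and gut miR-192 (269097 at 6.25 mg/L against 222060 at 0 mg/L, 0.28) were the highest of the 10. Those with the lowest ratios were miR-10b-5p, the skin arm miR-205-5p (134111 at 6.25 mg/L against 173244 at 0 mg/L, -0.37) and miR-30e-5p (313893 at 6.25 mg/L against 397282 at 0 mg/L, -0.34).

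Arms of a family on the same side were summed, and the families with at least 2 compared arms were ranked. Below miR-19 3p came miR-92 5p (459 reads at 6.25 mg/L and 572 at 0 mg/L, -0.32), miR-30 5p, miR-196 5p and miR-10 5p. The miR-30 5p family had 473405 reads at 6.25 mg/L and 584012 at 0 mg/L, a log2 ratio of -0.30. Its 3 arms whose main read is 24 nt, miR-30e-5p, miR-30d and miR-30c-5p, lay at -0.34, -0.27 and -0.21. The fourth, miR-30a-5p, is read at 20 nt and lay at 0.06, a value that changed sign with the scaling. They share 1 seed, GTAAACA:
miR-30e-5p: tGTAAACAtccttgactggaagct
miR-30d: tGTAAACAtccccgactggaagct
miR-30c-5p: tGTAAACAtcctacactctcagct
miR-30a-5p: tGTAAACAtccccgactgga
The main read of miR-30a-5p carries a substitution and equals the first bases of the miR-30d read, so these 2 arms cannot be told apart in that read.

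The miR-10 and miR-196 families, which lie in the Hox clusters and follow the body axis, were split by strand. miR-10 5p had 596904 reads at 6.25 mg/L and 700647 at 0 mg/L, a log2 ratio of -0.23, with its arms between -0.45 (miR-10b-5p) and 0.02 (miR-10d-5p). miR-10 3p had 4525 reads at 6.25 mg/L and 3585 at 0 mg/L, a log2 ratio of 0.34, with its arms between 0.12 and 0.60. miR-196 5p had 4398 reads at 6.25 mg/L against 5307 at 0 mg/L (-0.27), with miR-196a-5p at -0.27 and miR-196b at -0.28, and miR-196a-3p lay at 0.49. The 5p and 3p sums of miR-10 had opposite signs under the authors' scaling and under both other scalings.

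On the other end stood miR-430 3p with 4402 reads at 6.25 mg/L and 3215 at 0 mg/L, a log2 ratio of 0.45. This family clears maternal mRNAs in the early zebrafish embryo. Its arms miR-430a-3p, miR-430c-3p and miR-430b-3p share the seed AAGTGCT and had log2 ratios of 0.36, 0.54 and 0.57. With only the most abundant read of each arm, the family lay at 0.33. With the 5p arms, 5 of 7 arms were compared, of which 5 were above 0 and none was past 1.5-fold. The next families were miR-100 3p (774 reads at 6.25 mg/L and 604 at 0 mg/L, 0.36), miR-9 3p (62943 at 6.25 mg/L against 49766 at 0 mg/L, 0.34), miR-10 3p and miR-200 5p (1792 at 6.25 mg/L against 1434 at 0 mg/L, 0.32). In the last, miR-200a-5p at 0.39 and the scarce miR-200c-5p at -0.45 pointed in opposite directions. All reads of the miR-9 3p arms carry a substitution against the annotated form and may belong to a family member.

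Lists of families by tissue gave medians from -0.38 (smooth muscle) to 0.54 (red blood cells), beside 0.12 for all arms. Several of these lists held 3 compared arms or fewer. Of the neuron and brain list, 21 of 30 arms were compared, with a median of 0.23 and 16 arms above 0. They ran from -0.30 (miR-129-1-3p) to 0.57 (miR-212), and no zebrafish-named arm of the list was past 1.5-fold. Of all 190 arms, 123 were above 0 and 8.42% past 1.5-fold. miR-138-5p, a synaptic microRNA, had 17060 reads at 6.25 mg/L and 11625 at 0 mg/L (0.55), while the neuronal differentiation microRNA miR-124-3p had 13763 at 6.25 mg/L against 10007 at 0 mg/L (0.46). miR-212, a neuronal activity microRNA, had 2372 reads at 6.25 mg/L against 1597 at 0 mg/L. Neuronal miR-128 was read mainly under another species' name, which the list leaves out. That read, ssa-miR-128-3p, had 66764 reads at 6.25 mg/L against 43037 at 0 mg/L, a log2 ratio of 0.63 and past 1.5-fold. The zebrafish-named miR-128-3p, with a mean of 32.4, was not compared. The muscle list had a median of 0.09 over 8 of 11 arms, between miR-133a-5p at -0.33 and miR-499-3p at 0.48, none past 1.5-fold. Its most abundant arm, miR-133a-3p, had 114309 reads at 6.25 mg/L against 111353 at 0 mg/L, a ratio whose sign changed with the scaling. miR-219-5p, the marker of myelinating glia, had 38580.0 reads at 6.25 mg/L against 33915 at 0 mg/L (0.19).

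Among the tissues of the trunk, liver miR-122 had 24393 reads at 6.25 mg/L and 18653 at 0 mg/L, a log2 ratio of 0.39. Pancreatic arms had a median of 0.33 over 3 of 5 arms, with miR-216b at 0.34, miR-375 at 0.33 and miR-217 at -0.12. The gut and kidney list had a median of 0.28 over 3 of 4 arms, of which mir-194b-p3 was past 1.5-fold. The skin list went the other way, with a median of -0.18 over 5 arms, in which miR-203b-3p had 122060 reads at 6.25 mg/L and 140040 at 0 mg/L (-0.20), while the scarce miR-205-3p had 193.1 at 6.25 mg/L against 142.7 at 0 mg/L (0.43). The smooth muscle pair had a median of -0.38 and the red blood cell pair, both from miR-144, one of 0.54. Red blood cell miR-486 was read only under another species' name and went the other way. That read, named after mml-miR-486-5p, had 138.9 reads at 6.25 mg/L against 322.0 at 0 mg/L. Its log2 ratio of -1.21 (interval 0.349 to 0.532) was the lowest of the 60 compared reads with other species' names.

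Medians of the other lists lay between -0.24 and 0.38, beside 0.12 for all arms. The miR-23, miR-24 and miR-27 list had a median of 0.20 with 7 of 8 arms above 0 (miR-27b-3p, its most abundant, at 0.30), and the list of miR-99, miR-100 and miR-125 one of 0.12 with 7 of 8 above 0. The miR-30 list, both strands together, had a median of -0.24 with 5 of 6 arms below 0. The metabolic list of 4 arms, led by miR-103 (24204 reads at 6.25 mg/L and 25693 at 0 mg/L, -0.09), had a median of -0.06. The endothelial pair, of which miR-126a-5p was past 1.5-fold, had one of 0.38. The sensory list had a median of 0.06 from 2 arms, miR-96-3p at 0.28 and miR-96-5p at -0.16. Medians of the miR-26 (0.06), miR-181 (-0.01), epithelial (0.07), Hox (0.07) and cartilage (-0.01) lists changed sign with the scaling. In the last of these, miR-199-3p had 69378 reads at 6.25 mg/L and 54390.1 at 0 mg/L (0.35). The glia list (0.19), the miR-130 and miR-301 list (-0.23), miR-7a (-0.03) and miR-21 (0.24) complete the set. The sign of miR-7a also changed with the scaling. No zebrafish-named let-7 arm was among the arms summed here.

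Both strands were compared for 52 hairpins, with strands paired by name. A 5p read shared by more than 1 hairpin cannot be split between them, so some pairs may not be strands of 1 hairpin. The 3p strand had the higher ratio in 38 of them and the lower in 14, with a median of 0.20 for the log2 ratio of the 3p strand less that of the 5p strand. Over all arms with a named side, the 74 arms named 3p had a median of 0.22, and the 65 named 5p one of 0.01. The excess of the 3p strand was seen where 3p was the scarcer strand (21 of 29 hairpins) and where 5p was (17 of 23). Shifts towards 3p were the largest in 5 hairpins, with 1.05 for miR-10b, 0.97 for miR-144, 0.80 for miR-205, 0.80 for miR-135b and 0.76 for miR-196a. Towards 5p they were -1.14 for miR-19a, -0.62 for miR-142a and -0.55 for miR-126a.

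For miR-10b, 3p strands made up a log2 ratio to 5p strands of -7.51 at 6.25 mg/L and -8.56 at 0 mg/L, while the 5p strand stayed far more abundant in both. The further 3p arm miR-10b-2-3p, which this pair leaves out, lay at only 0.12. miR-135b-3p had 1706 reads at 6.25 mg/L and 1236 at 0 mg/L, whereas miR-135b-5p had 288.1 at 6.25 mg/L against 363.3 at 0 mg/L. Strand length moved with the shift. Where the 3p read was the shorter, it had the higher ratio in 15 of 17 hairpins (median 0.31), and with equal lengths in 18 of 25 (0.21), but where the 3p read was the longer, in 5 of 10 (-0.10). The 3p to 5p ratio was lowest of the 3 libraries at 0 mg/L in 28 hairpins, at 6.25 mg/L in 6 and at 12.5 mg/L in 18. With a mean of at least 1000 reads on both strands, 11 of 17 hairpins had the higher 3p ratio.

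**Figure D3:**
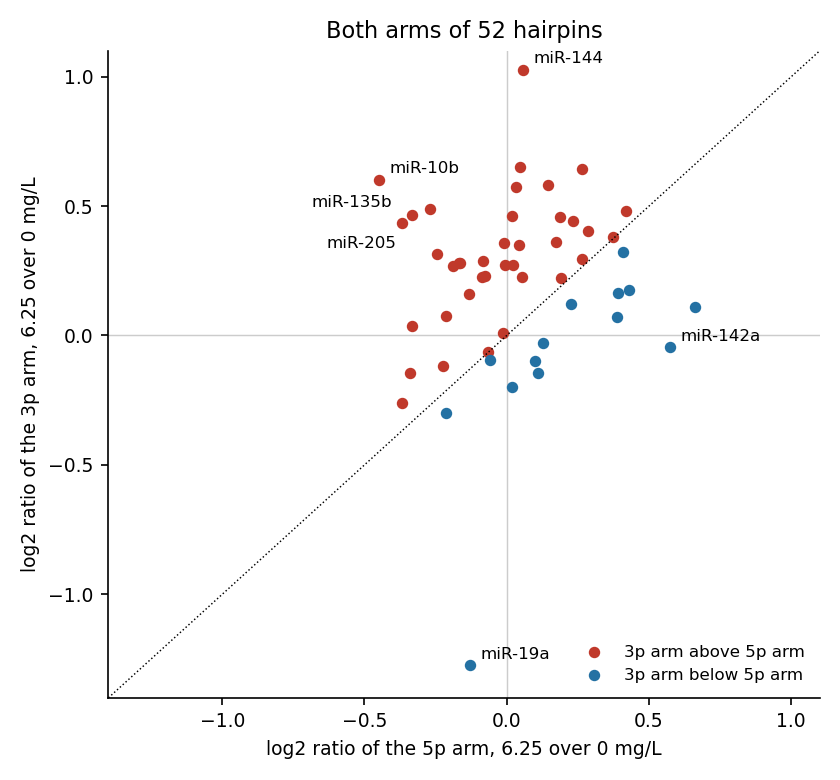
Log2 ratio of 6.25 over 0 mg/L for the 3p arm (vertical axis) and the 5p arm (horizontal axis) of 52 hairpins, 1 point per hairpin. Points above the dotted diagonal, 38 of 52, have the higher ratio on the 3p arm, and miR-10b, miR-144 and miR-19a lie farthest from it.

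Arms with a longer main read had lower ratios. Medians of the log2 ratio were 0.29 for the 27 arms of 21 nt, 0.12 for the 118 arms of 22 nt, -0.06 for the 40 arms of 23 nt and -0.27 for the 3 arms of 24 nt. The 3 arms of 24 nt are all miR-30 arms with 1 seed, so that class shows the ratio of 1 family. The single arm of 25 nt, miR-301a, lay at -0.63, and the single arm of 20 nt, miR-30a-5p, at 0.06. Of the 8 arms at least 1.5-fold higher, 5 were 21 nt long, and of the 8 lower arms 5 were 23 nt. Over the 190 arms, length and ratio had a Spearman correlation of -0.32 and a Pearson correlation of -0.34. This is a description, since all arms share the same pair of libraries and arms of a family share sequence.

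Without the miR-19 arms the medians at 21, 22 and 23 nt were 0.29, 0.14 and -0.03. The order by length was seen in arms named 5p (0.20, 0.02 and -0.16 at 21, 22 and 23 nt). In arms named 3p it was not, with medians of 0.29 and 0.18 at 21 and 22 nt and 0.37 over the 6 arms of 23 nt. Abundance (Spearman -0.16) and GC content (-0.05) of the main read had weaker relations to the ratio. By abundance class, the medians at 21, 22 and 23 nt were 0.20, 0.27 and -0.19 for means of 100 to 1000, and 0.30, 0.18 and -0.0025 for 1000 to 10000. Above that they were 0.38 (2 arms) and 0.04 at 21 and 22 nt, and within 0.01 of 0 at 23 nt. After the median of arms of the same length was taken from each arm (with 20 nt joined to 21 nt and 25 nt to 24 nt), 6 arms were at least 1.5-fold higher and 6 lower. Of the 8 higher arms, 2 were among them, miR-144-3p and mir-31-p3, and the other 4 were miR-20b-3p, miR-430b-3p, miR-212 and miR-138-5p. The median taken at each length joined both strands. For mir-31-p3, miR-20b-3p and miR-430b-3p, all 3p arms of 23 nt, it was -0.06, beside 0.37 for 3p arms of that length. Their place among the 6 therefore depended on joining the strands. All 6 lower arms were among the 8 found before, without miR-155 and miR-301a. The median taken from miR-301a came from a class of 4 arms, itself and the miR-30 arms of 24 nt.

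**Figure D4:**
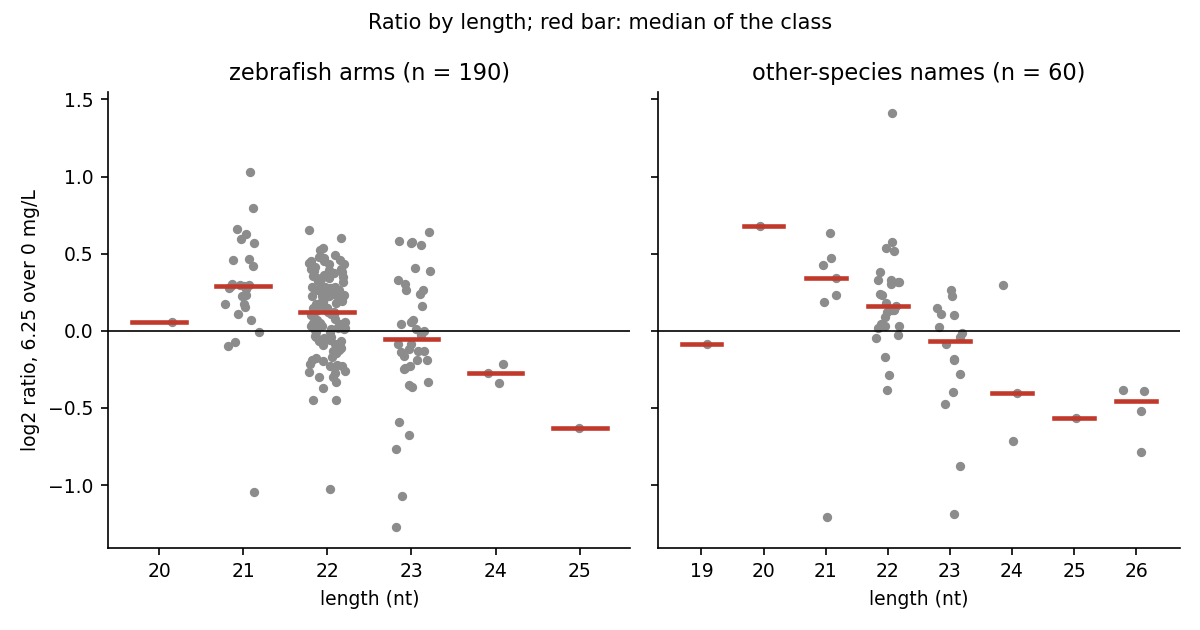
Log2 ratio of 6.25 over 0 mg/L by read length, for the 190 zebrafish arms (left, length of the main read) and for 60 sequences named after other species (right), with 1 point per arm or sequence spread sideways at random. Red bars are medians, which go from 0.29 at 21 nt to -0.27 at 24 nt for the zebrafish arms, where the 24 nt arms are all from miR-30.

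The same direction was seen in the medians within arms, though not in every arm. There, long and short reads carry the same arm name and share most of their sequence. Reads longer at the 3′ end than the annotated form could be set against reads with the annotated end in 10 arms. Their log2 ratio of 6.25 over 0 mg/L was lower by a median of 0.20, with 6 arms below 0, 4 above and a range of -0.47 to 0.41. Reads shorter at the 3′ end were higher than those with the annotated end by a median of 0.27 in 10 arms, 7 above 0 and 3 below, from -0.10 to 0.96. These 10 include miR-137-5p (0.45), whose arm was under the limit of 100. The value of 0.96 came from miR-429b, whose 18 nt read also begins a read named after miR-200b of another species. That short read may belong to either microRNA. Most of these differences are within 1.5-fold. With at least 50 normalised reads in each class, the medians were -0.09 for extended and 0.12 for shortened reads, over 8 arms each.

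In 24 arms a longer read contains a shorter one from its first base, with a mean of at least 10 normalised reads for each. These include miR-137-5p, an arm under the limit of 100 with a mean of 40.7. The pair farthest apart in length was taken, and its reads are called longest and shortest. These nested pairs are the closest comparison of length. The longest had the lower ratio in 19 arms and the higher in 5, with a median difference of -0.27 on the log2 scale. Pairs 1 nt apart had it in 10 of 12 arms (-0.21) and pairs 2 nt or more apart in 9 of 12 (-0.42). With substituted forms left out, the longest read was lower in 15 of 20 arms. Among the 19 is miR-429b, with its 18 nt read of uncertain origin. The pairs below show the widest gap (miR-430a-3p), 2 further cases past the median (miR-24 and miR-181a-5p) and the largest exception (miR-7a). In the abundant pairs of miR-181b-5p and miR-9-5p the difference was smaller, -0.07 and -0.21. Capitals mark the seed, which is the same in both reads of a pair.
miR-430a-3p, 26 nt: tAAGTGCTatttgttggggtagtttt
miR-430a-3p, 21 nt: tAAGTGCTatttgttggggta
miR-24, 23 nt: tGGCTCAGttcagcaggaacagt
miR-24, 21 nt: tGGCTCAGttcagcaggaaca
miR-181a-5p, 25 nt: aACATTCAacgctgtcggtgagttt
miR-181a-5p, 22 nt: aACATTCAacgctgtcggtgag
miR-7a, 24 nt: tGGAAGACtagtgattttgttgtt
miR-7a, 23 nt: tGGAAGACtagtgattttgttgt

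The 26 nt read of miR-430a-3p had 18.4 normalised reads at 6.25 mg/L and 34.2 at 0 mg/L, a log2 ratio of -0.86. Its 21 nt read had 225.8 at 6.25 mg/L and 142.1 at 0 mg/L, a log2 ratio of 0.66. The 26 nt and 21 nt reads thus lay on opposite sides of 0, but the 26 nt read is scarce and a small part of the sum at 0.36. All 3′-extended reads of this arm without a changed 5′ end or substitution had 363.2 reads at 6.25 mg/L against 349.2 at 0 mg/L (0.06). The form with the annotated end lay at 0.30. The 23 nt read of miR-24 had 2501 reads at 6.25 mg/L and 2759 at 0 mg/L, while the 21 nt read had 544.0 at 6.25 mg/L against 398.7 at 0 mg/L. The 25 nt read of miR-181a-5p had 19342 reads at 6.25 mg/L and 26397 at 0 mg/L (-0.45), while the 22 nt read had 129417 at 6.25 mg/L against 131346 at 0 mg/L (-0.02). Even in an arm whose sum lay at -0.01, the long form stood lower. In miR-7a the order was reversed, with 21551 reads at 6.25 mg/L against 20448 at 0 mg/L for the 24 nt form (0.08). The 23 nt form had 33345 at 6.25 mg/L against 36196 at 0 mg/L (-0.12). The other exceptions were miR-212 (0.13), miR-218a (0.10), miR-132-3p (0.03) and miR-124-3p (0.02).

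**Figure D5:**
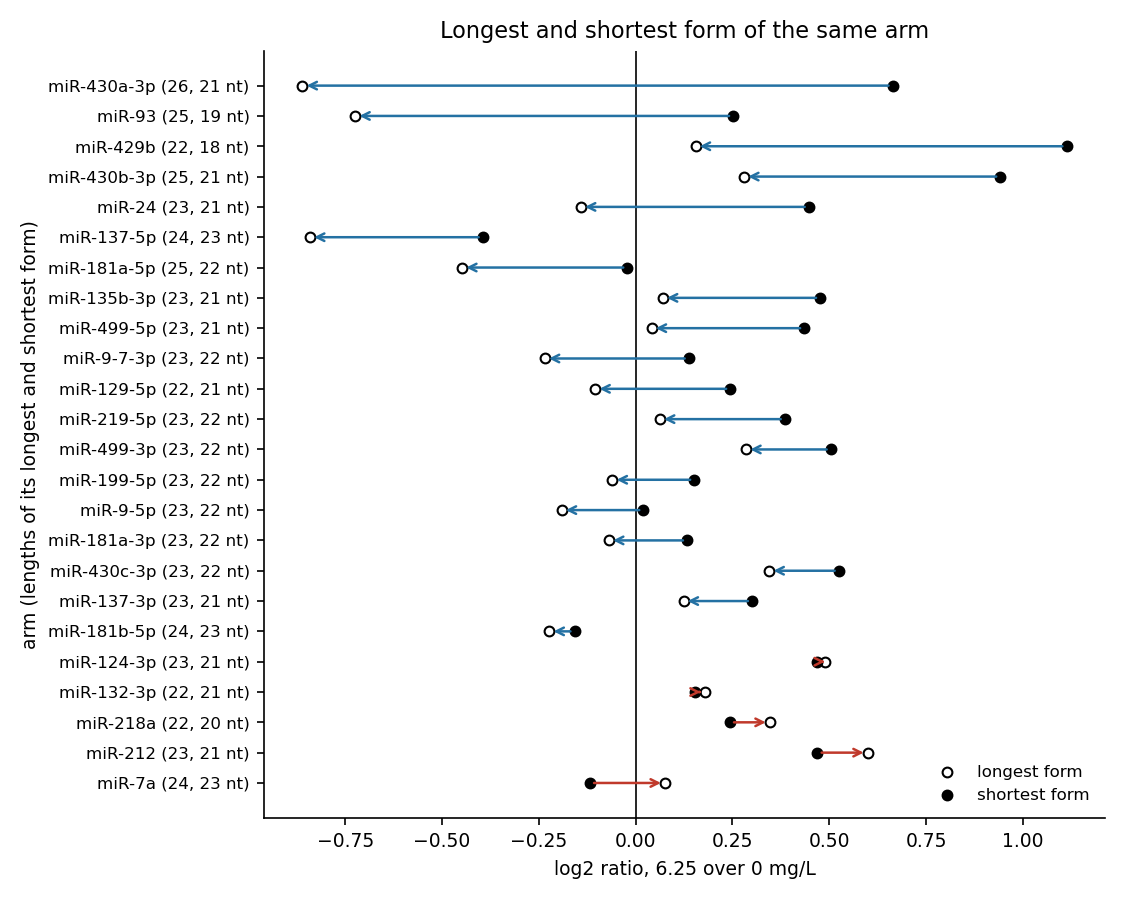
Log2 ratio of 6.25 over 0 mg/L for the longest (open) and the shortest (filled) read of 24 arms in which the longest contains the shortest, with their lengths beside the name. Arrows run to the longest read and point left, to the lower ratio, in 19 of the 24 arms.

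Averaged over all reads of an arm, the 3′ end moved little. Among arms with a mean of at least 1000, the mean position of the 3′ end was nearer the 5′ end at 6.25 mg/L by 0.12 nt in miR-430b-3p, whose mean read was 22.95 nt at 6.25 mg/L and 23.07 nt at 0 mg/L. The shifts were -0.11 nt in miR-430a-3p and -0.10 nt in miR-429b, with its 18 nt read of uncertain origin included. At the other end were 0.03 nt in miR-7a, 0.03 nt in miR-212 and 0.02 nt in miR-130a. Within miR-430b-3p all extended reads together had a higher ratio than the annotated form (0.41), although its longest read was lower than its shortest, so length did not order every form of that arm.

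In the whole of the zebrafish-named counts, 20 to 21 nt reads made up 3.00% at 6.25 mg/L (95% exact interval 2.99 to 3.02) and 2.23% at 0 mg/L (2.22 to 2.25). Reads of 24 to 26 nt made up 12.8% at 6.25 mg/L and 15.1% at 0 mg/L, while 22 nt reads had 61.6% at 6.25 mg/L against 61.0% at 0 mg/L. Reads of 23 nt had 22.6% at 6.25 mg/L against 21.6% at 0 mg/L. Much of the 24 to 26 nt class was miR-30, without whose 5p arms the shares were 3.91% at 6.25 mg/L and 4.57% at 0 mg/L. The mean read was 22.46 nt at 6.25 mg/L and 22.51 nt at 0 mg/L. In the 12.5 mg/L library, 20 to 21 nt reads made up 3.13% and 24 to 26 nt reads 15.6%, but the 24 to 26 nt share there was 3.95% without the miR-30 5p arms. In the short class that library was near the 6.25 mg/L library, and in the long class its nearer neighbour changed with miR-30. Counted against the annotated 3′ end, the shares did not follow the length classes: shortened reads made up 17.1% at 6.25 mg/L against 18.8% at 0 mg/L, and 18.7% at 6.25 mg/L against 21.1% at 0 mg/L without the miR-30 5p arms. Extended reads made up 30.6% at 6.25 mg/L against 31.1% at 0 mg/L, but 23.6% at 6.25 mg/L against 22.5% at 0 mg/L without miR-30.

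Sequences outside the zebrafish names gave a further view of the length pattern in the same libraries. The authors named some reads after microRNAs of other species, and 60 of these had a mean of at least 100. Their median log2 ratio was 0.10, with 3 at least 1.5-fold higher and 5 lower. By length, medians were 0.38 at 20 to 21 nt (8 sequences), 0.16 at 22 nt (27), -0.06 at 23 nt (16) and -0.46 at 24 to 26 nt (8, of which 1 was above 0), and the remaining read is 19 nt long. The reads of 24 to 26 nt are named after miR-30, miR-181, miR-92, miR-205 and miR-221. The zebrafish families miR-30 5p, miR-181 5p, miR-92 3p and miR-205 5p also lay below 0 (-0.30, -0.07, -0.13 and -0.37). Length and family cannot be told apart in that class. Of the 60 reads, 8 begin with the whole of a zebrafish-named form. Of these 8, 7 had a lower ratio than that form, with a median difference of -0.26. They are not all longer forms of the same arm. The widest difference, -1.15, set a read named after miR-200b against the 18 nt read of miR-429b. Reads named after miR-92a and miR-92 begin with the same miR-92a-3p form and differed from it by -0.14 and 0.56. An example within 1 arm is a 26 nt read that runs past the end of miR-30e-5p, with 137.4 reads at 6.25 mg/L and 237.1 at 0 mg/L (-0.78), against -0.34 for the 24 nt form. With 1 library per group, a difference in read length between libraries and one between larvae of the 2 parent groups cannot be told apart. The part of read length in the arm ratios was not tested.

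Counts of near-identical arms are uncertain, since reads could be split between them. miR-455-5p had 3603 reads at 6.25 mg/L against 2958 at 0 mg/L, while its near copy miR-455-2-5p had 3845 at 6.25 mg/L against 3161 at 0 mg/L, both at a log2 ratio of 0.28. Of the raw values, 78.2% were whole numbers (tolerance 1e-09), and how fractional values arose was not given. The main reads of several arms, miR-26a-5p and miR-130a among them, carry a substitution against the annotated form and may belong to a family member. Leaving out the substituted sequences left 167 arms at the limit. It kept the 8 higher arms and 7 of the 8 lower ones, miR-19d-3p having no other read. miR-130a and the 3 arms of miR-9 3p also had no other read, so their values rest on substituted reads alone. Of the hairpins, 29 of 41 then had the higher 3p ratio.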

How the data were processed

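Small RNA of whole larvae was sequenced as single-end 36 bp reads from Illumina TruSeq small RNA libraries, per the labels' protocols. The genome build was Zv9, per the submitters' processing notes. The sources used here do not give the aligner or the rules of counting. The authors deposited raw values, which are expected counts (estimated counts, in part fractional) per sequence, and a normalised signal, which in each library was the count times 1 factor. Depth was 4534557 to 6041242 counts per library. Rows with a zebrafish name were taken once per sequence (fewest substitutions, then fewest end changes) and summed per arm. The names gave the end changes.

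A pseudocount of 1 was added to both levels before the log2 ratio, which makes ratios of scarce arms too small. Ratio intervals (95%, Clopper-Pearson, exact) were taken from counts rounded to whole numbers and cover counting error only, since PCR reads are not independent molecules. Named were the 10 highest, 10 lowest and 10 most abundant arms, the most abundant arm of each of the 29 lists, the 5 highest and 5 lowest families, and the 3 arms with the largest and the 3 with the smallest 3′ shift. Other arms were named after their values were seen. Members and lists were chosen with earlier results of these data known. Calculations used Python 3.11.15 with pandas 2.3.3, numpy 2.4.6 and scipy 1.17.1 and were tested on simulated data.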

Additional observations from a re-analysis of the deposited data

Results flagged for a closer look

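Outside the zebrafish-named arms, a read of 22 nt that the authors named after the salmon microRNA ssa-miR-21b-3p, 1 nt shorter at its 5′ end and 1 nt longer at its 3′ end, had 6609.9 normalised reads at 6.25 mg/L and 2480.2 at 0 mg/L. Its log2 ratio was 1.41, with a counting interval of the ratio of 2.54 to 2.80. It drew attention because it had the highest ratio of the 60 sequences with other species' names and a mean of at least 100, and a higher ratio than any of the 190 zebrafish arms, in data that the arm sums do not use. At 12.5 mg/L it had 2758.7 reads. Its cause was not tested, and there is no replicate of any library.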

How the results depend on the processing

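The counts of 8 arms higher and 8 lower at 1.5-fold and the median of 0.12 were recomputed under other settings. Arms at least 1.5-fold higher numbered 13 of 195 with equal library totals. With the median of ratios they numbered 2 of 193 (median log2 ratio 0.039). They numbered 15 of 232 with a mean of at least 10 and 4 of 127 with a mean of at least 1000. Without a limit they numbered 30 of 296. Arms at least 1.5-fold lower numbered 5 of 127 with a mean of at least 1000 and 15 of 296 without a limit. The abundance limits thus also changed the number of arms compared, from 190. Of the hairpins, 11 of 17 had the higher 3p ratio with a mean of at least 1000 on both arms, against 38 of 52, which is fewer hairpins by construction. Beyond these numbers of arms and hairpins, the cause was not tested. With at least 50 normalised reads in each class, the within-arm medians were smaller, -0.09 against -0.20 for 3′-extended and 0.12 against 0.27 for shortened reads. Under both scalings and both pseudocounts (0.5 and 10), all 16 arms past 1.5-fold kept their direction, and miR-155 was under 1.5-fold with a pseudocount of 10. The length-centred ratios, the nested reads and the hairpin settings were chosen after seeing the data. No paired analysis was possible because each group had 1 library. Depth limits only the scarce arms, such as miR-19d-3p and miR-2191.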
